A study of Mus musculus with 12 samples.

Results

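Axon injury and regeneration genes are switched on in neurons whose axon has been cut, and 9 of them were followed here in whole retina of adult mice: Sox11, Klf6, Sprr1a, Gap43, Stmn2, Gal, Ecel1, Gadd45a and Hspb1. The genes were chosen by symbol, and every probe set that the annotation of the Affymetrix Mouse Genome 430 2.0 array assigns to 1 of these genes and to no other was taken. This gave 20 probe sets of the 45037 tested, and 9 genes of the 18193 that have a probe set with a single symbol. Sox11 had 6 probe sets, Klf6 had 5, Hspb1 and Stmn2 had 2 each, and the other 5 genes had 1 each.

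Retinal ganglion cells are the output neurons of the retina, and their axons form the optic nerve, which is severed when the eye is removed. In mammalian neurons a cut axon activates the kinases DLK and JNK, and this signal reaches the nucleus and switches on transcription factors such as Jun, Atf3 and Sox11. The genes that follow encode growth cone and cytoskeleton proteins, neuropeptides, proteases and stress proteins. Peripheral neurons regrow axons under this programme, whereas most ganglion cells of the adult mammal fail to regrow and many die. Klf6, Gadd45a and Hspb1 are also made by glia, vessels and immune cells, and an array of whole retina does not show which cells carry an RNA.

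The 6 groups held 2 arrays each. Retinal explants of 129 mice (129X1/SvJJmsSlc) were cultured for 3 days (3DIV) with CHIR99021, an inhibitor of the kinase GSK3, or with vehicle, and normal retina of 129 mice was taken without culture. The same 3 groups were made from B6 mice (C57BL/6NCrSlc), and all mice were 10 weeks old. The labels give 15 µM for CHIR99021, and the methods name this dose and a higher one for explants without saying which went to the arrays. Per the methods, the vehicle was DMSO and control medium also held EdU, a thymidine analogue. For culture, the neural retina was freed of cornea, sclera, lens, iris, ciliary body and pigmented epithelium, and the methods do not describe the dissection of normal retina. The change called damage here joins the cut of the optic nerve, the dissection and 3 days in culture, which cannot be told apart. The methods state that 2 retinas were used for each condition, but not whether they came from 1 animal, so the p-values measure the spread between these samples only.

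Levels are RMA intensities on the log2 scale, on which a difference of 1 is a 2-fold change. The change after damage is 3DIV vehicle minus normal retina, the effect of the inhibitor is 3DIV CHIR99021 minus 3DIV vehicle, and a strain difference is 129 minus B6. Errors are standard errors (SE) from a limma fit to all 12 arrays, and a probe set was called at a Benjamini-Hochberg adjusted p under 0.05 over all probe sets. Replicate arrays correlated with a Pearson r between 0.9965 and 0.9978. In normal 129 retina, 12 lens genes summed to 1240 on replicate 1 and to 27700 on replicate 2, against 430 to 919 on the other 10 arrays. Hspb1 and some counts that rest on normal 129 replicate 2 are therefore also given without it. Other estimates shifted too and are given with it only. The rise of Ecel1 after damage in 129, for example, was 3.84 without it.

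After damage, 17 of the 20 probe sets rose in 129 and all 20 rose in B6. By main probe set, 8 of the 9 genes rose in 129 and all 9 in B6. No probe set of these genes fell in either strain by limma. At an unadjusted p under 0.05 there were 18 in 129 and 20 in B6, all of them upward. Over all 45037 probe sets, 17864 in 129 and 18374 in B6 had such a p in either direction. Of all probe sets tested, 14.7% were called higher in 129 and 14.9% in B6, out of 30.6% and 31.5% called in either direction. Calls were more frequent at high levels, and the main probe sets of the 9 genes lay at percentiles 79.5 to 95 of level. With only probe sets above the median level tested, 12135 were called in 129 and 12074 in B6, in either direction. The median change of the 20 was 1.73 in 129 and 1.62 in B6, beside -0.03 and -0.02 over all probe sets. Sprr1a, Gal, Sox11 and Ecel1 formed the upper end with rises of over 3 at their main probe set in both strains, and Gap43, Klf6 and Gadd45a lay between 1.17 and 1.82. Stmn2 and Hspb1 formed the lower end. The main probe set of a gene is the one with the highest mean over all arrays. All 17 calls in 129 and 19 of the 20 in B6 were made in each of the 12 fits that left out 1 array.

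**Figure D1:**
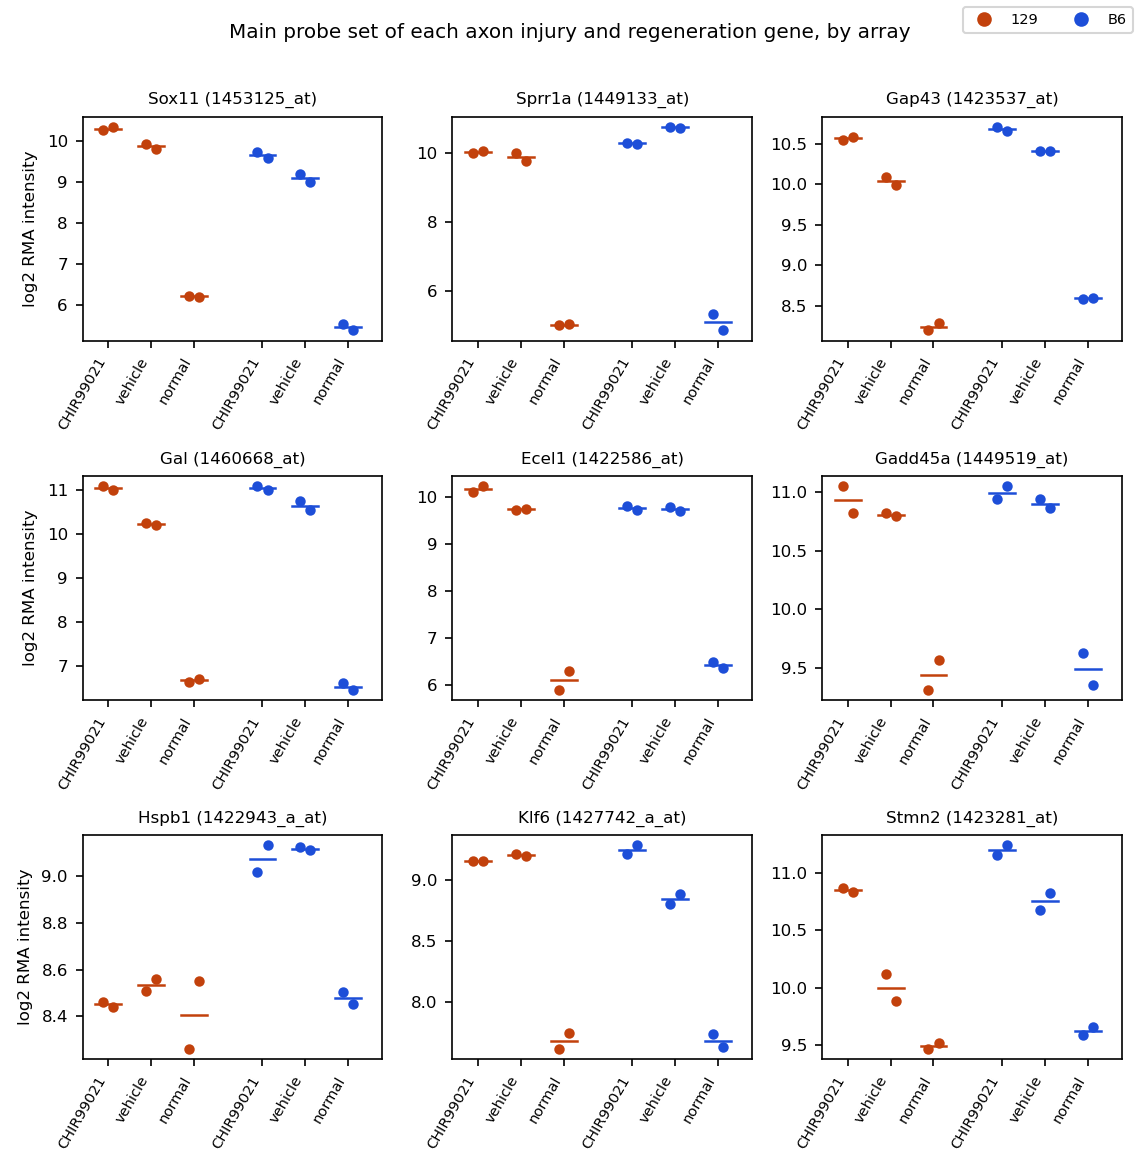
Level of the main probe set of each gene on every array (points, log2 RMA intensity; each panel has its own axis) with the group mean (line), for explants with CHIR99021, explants with vehicle and normal retina of 129 and then B6 mice. In 8 panels every explant lies above every normal retina of its strain, and in the Hspb1 panel this holds for B6 but not for 129.

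Sox11, a transcription factor of developing neurons that promotes axon growth and is silent in most mature ones, stood at 9.92 and 9.81 in 129 explants with vehicle, against 6.23 and 6.20 in normal 129 retina (probe set 1453125_at). In B6 it stood at 9.19 and 8.999 in explants, against 5.55 and 5.39 in normal retina. The groups were far apart in both strains and the replicates lay close together. The rises were 3.65 in 129 (SE 0.09, adjusted p = 9.74e-10) and 3.62 in B6 (adjusted p = 1.98e-09), or 12.6-fold and 12.3-fold. The other 5 probe sets rose as well, by 1.97 to 4.15 in 129 and by 2.89 to 3.93 in B6. The smallest of these rises was that of 1431225_at in 129, and the strains differed there, as described further on.

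Klf6, a zinc finger factor that supports axon growth in ganglion cells of fish and is an early gene of injury in other tissues, stood at 9.22 and 9.20 in 129 explants, against 7.61 and 7.74 in normal 129 retina (1427742_a_at). In B6 the levels were 8.81 and 8.89 in explants, against 7.73 and 7.62 in normal retina. Explants and normal retinas did not overlap, and normal retinas of the strains lay together while explants of 129 lay above those of B6. Klf6 rose by 1.54 in 129 (SE 0.08, adjusted p = 1.01e-07) and by 1.17 in B6 (adjusted p = 8.34e-07). Its 5 probe sets rose by 1.26 to 1.65 in 129 and by 1.05 to 1.29 in B6, so the rise in 129 was the larger estimate at each of them. None of these 5 differences between the strains was called, as their adjusted p lay between 0.0601 and 0.513.

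Sprr1a had the largest change of the 9 genes. It encodes a cornified envelope protein of skin that injured neurons of the peripheral nervous system also make and that promotes their outgrowth. The level was 10.00 and 9.77 in 129 explants, against 5.03 and 5.03 in normal 129 retina, and 10.77 and 10.73 in B6 explants, against 5.34 and 4.86 in normal B6 retina. Normal retinas of both strains lay near the low end of the array and explants in its upper range. The rise was 4.85 in 129 (SE 0.13, adjusted p = 1.56e-09) and 5.65 in B6 (adjusted p = 1.32e-09), or 28.9-fold and 50.1-fold. Among the 45037 probe sets these rises ranked 29 in 129 and 5 in B6. Epithelium of the cornea and conjunctiva also makes Sprr1a. Of 8 measured markers of that epithelium, 1 was called after damage, Krt15, which was lower in B6, with medians of the 8 at -0.10 in 129 and -0.07 in B6, and the part of this epithelium in the level of Sprr1a was not tested.

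The start region of Sprr1a held letters that AP-1, the factor formed by Jun with Fos or Atf proteins, recognises. In the RefSeq promoter table, which spans 250 bases before to 50 bases after the start of a gene (GRCm38.p6), an entry was found for 7 of the 9 genes, and the AP-1 motif TGANTCA was found in 1 of them, Sprr1a, on either strand. It matched at 2 places, from -146 to -140 and from -116 to -110 relative to the start, with 23 bases between them. Among its 32851 promoters 7.81% held the motif. A motif in 1 of 7 windows does not set these genes apart from that share. The stretch is shown because Sprr1a had the largest rise. Jun (2.07 in 129 and 1.88 in B6) and Atf3 (2.32 and 3.33) rose as well, and whether either acts on Sprr1a was not tested. The stretch lies at chr3:92485971-92486047 on the minus strand, is written in the direction of the gene, and has the matches in capitals.
Sprr1a: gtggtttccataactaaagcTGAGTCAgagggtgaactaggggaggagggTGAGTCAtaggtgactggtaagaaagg
The motif TGACGTCA of ATF and CRE (1.79% of all promoters), the heat shock element (0.603%), the STAT motif TTCNNNGAA (8.3%) and the CHOP and ATF4 motif TGATGNAAN (3.95%) were not found in these 7 windows. A match describes letters in a window, and binding was not measured.

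Gap43, a membrane protein of growth cones and the classical mark of a regrowing axon, stood at 10.09 and 9.99 in 129 explants, against 8.19 and 8.28 in normal 129 retina. B6 levels were 10.41 and 10.41 in explants, against 8.58 and 8.59 in normal retina. Replicates lay close together, and all explants were above all normal retinas. The rise was 1.80 in 129 (SE 0.07, adjusted p = 1.81e-08) and 1.82 in B6 (adjusted p = 2.10e-08), and the difference of -0.02 between them had an adjusted p of 0.95.

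Stmn2, a stathmin that binds tubulin in growing axons, was already high in normal retina and rose less. Its main probe set 1423281_at stood at 10.12 and 9.88 in 129 explants, against 9.46 and 9.51 in normal 129 retina, and at 10.68 and 10.83 in B6 explants, against 9.59 and 9.66 in normal B6 retina. The normal retinas of the strains lay close together, while the B6 explants were above the 129 explants. Stmn2 rose by 0.51 in 129 (SE 0.09, adjusted p = 0.00145) and by 1.13 in B6 (adjusted p = 4.86e-06). When centred on 7 housekeeping genes the change in 129 was -0.00175, but 1 of these genes, B2m, itself rose after damage in both strains. The other probe set, 1423280_at, changed by 0.26 in 129 (adjusted p = 0.0575) and rose by 0.37 in B6 (adjusted p = 0.0104). The second of these calls was lost without B6 normal replicate 2 (0.26, adjusted p = 0.0856) or B6 3DIV vehicle replicate 2 (0.30, adjusted p = 0.0828).

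Gal, which encodes the neuropeptide galanin, made by injured sensory and motor neurons, stood at 10.26 and 10.20 in 129 explants, against 6.65 and 6.72 in normal 129 retina. In B6 it stood at 10.75 and 10.55 in explants, against 6.61 and 6.47 in normal retina. Levels of all explants exceeded those of all normal retinas by over 3. Gal rose by 3.55 in 129 (SE 0.09, adjusted p = 8.73e-10) and by 4.11 in B6 (adjusted p = 7.90e-10), or 11.7-fold and 17.3-fold.

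Ecel1, a membrane protease that injured neurons induce and that motor axons need to branch, stood at 9.74 and 9.75 in 129 explants, against 5.90 and 6.30 in normal 129 retina. In B6 the level was 9.79 and 9.72 in explants, against 6.50 and 6.36 in normal retina. The explants of both strains had about the same level. The rise was 3.64 in 129 (SE 0.12, adjusted p = 4.23e-09) and 3.32 in B6 (adjusted p = 1.17e-08), or 12.5-fold and 10.0-fold.

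Gadd45a, a stress sensor of DNA damage and growth arrest that is also a standard mark of axotomised sensory neurons, stood at 10.82 and 10.80 in 129 explants, against 9.31 and 9.57 in normal 129 retina. B6 levels were 10.94 and 10.87 in explants, against 9.63 and 9.35 in normal retina. The strains overlapped in normal retina, and explants were higher than normal retina throughout. Gadd45a rose by 1.37 in 129 (SE 0.12, adjusted p = 6.63e-06) and by 1.41 in B6 (adjusted p = 5.83e-06).

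Hspb1, the small heat shock protein that protects the actin skeleton and neurons from stress, had the smallest rise of the main probe sets in B6 and no call in 129. Its main probe set 1422943_a_at stood at 8.51 and 8.56 in 129 explants, against 8.26 and 8.55 in normal 129 retina, and at 9.12 and 9.11 in B6 explants, against 8.51 and 8.45 in normal B6 retina. The groups overlapped in 129 and not in B6. The change was 0.13 in 129 (SE 0.09, adjusted p = 0.352; -0.385 when centred on housekeeping genes), and Hspb1 rose by 0.64 in B6 (adjusted p = 3.99e-04). The second probe set, 1425964_x_at, gave 0.12 in 129 (adjusted p = 0.586) and a rise of 0.66 in B6 (adjusted p = 0.00471). The value in 129 depended on the normal retina it was set against, since it was 0.27 without 129 normal replicate 2 (adjusted p = 0.0552), the array with the high lens genes, and -0.02 without 129 normal replicate 1 (adjusted p = 0.924). The part of lens RNA in these levels was not tested.

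**Figure D2:**
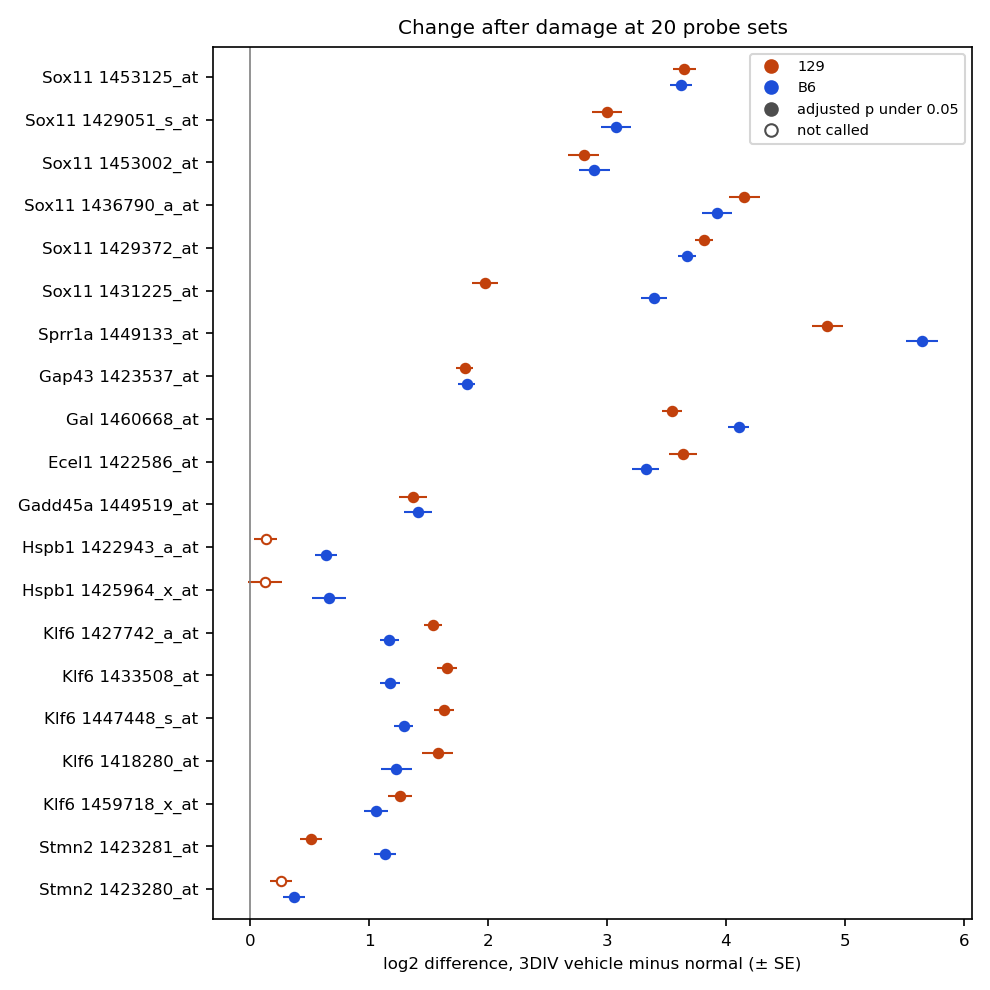
Change after damage (3DIV vehicle minus normal retina, log2, with SE) at the 20 probe sets, with 129 above B6 in each row and open symbols where a change was not called. All 20 estimates lie right of 0 in both strains, from 0.12 for Hspb1 1425964_x_at in 129 to 5.65 for Sprr1a in B6, and the strains part most at Sox11 1431225_at.

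Whether the strains responded differently was tested by subtracting the B6 change from the 129 change. Of the 20 probe sets 3 were called, and all 3 had the larger rise in B6: Sox11 1431225_at, Gal and Stmn2 1423281_at. Of all probe sets 1.55% were called with the higher value in 129 and 1.03% with the higher value in B6, 2.58% in all. No member was called in the direction of 129 by limma. An unadjusted p under 0.05 in either direction was seen at 9 of the 20, among them probe sets of Klf6 with the larger rise in 129. Over all 45037 probe sets 7855 had such a p. The median of the 20 differences was -0.03, beside 0.00 over all probe sets.

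The difference at Sox11 1431225_at was -1.43 (SE 0.16, adjusted p = 0.00131), and it was called in each of the 12 fits without 1 array. This probe set stood at 6.78 and 6.77 in 129 explants, against 4.87 and 4.73 in normal 129 retina, and at 9.12 and 8.81 in B6 explants, against 5.46 and 5.68 in normal B6 retina. The 129 explants stayed far below the B6 explants, and 129 was already below B6 in normal retina. At the other 5 probe sets of Sox11 the difference lay between -0.09 and 0.23, and none of these was called. The probe sets of Sox11 therefore did not share this strain difference, and what sets 1431225_at apart was not tested. The annotation used here assigns 1431225_at to Sox11. The paper lists it without a gene name, among candidate proliferation repressors that were higher in B6 after damage.

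For Gal the difference was -0.56 (SE 0.12, adjusted p = 0.0423) and for Stmn2 1423281_at it was -0.62 (SE 0.13, adjusted p = 0.0346). At the other probe set of Stmn2, 1423280_at, the difference was not called. The calls of Gal and of Stmn2 1423281_at both stand on few arrays. The call of Gal was made in 1 of the 12 fits without 1 array, the one without B6 3DIV vehicle replicate 2, and in the other 11 the adjusted p was 0.0549 to 0.149. The call of Stmn2 was made in 3 of the 12, those without 129 3DIV vehicle replicate 1 or without either B6 array with CHIR99021, and in the other 9 the adjusted p was 0.0522 to 0.125. With replicate number as a block Stmn2 had an adjusted p of 0.0528. Sprr1a had a larger difference of -0.79 (SE 0.19), but with an adjusted p of 0.0529 it was not called, and without B6 normal replicate 1 it was -1.03 (adjusted p = 0.00772). It was called under 5 other settings, with an adjusted p of 0.0440 after cyclic loess, 0.0254 with probe sets above the median level, 0.0121 with trend and robust, 0.0385 by Storey q-values and 0.00674 when centred on housekeeping genes (-1.03). With only the arrays compared, Gal (adjusted p = 0.0773) and Stmn2 (0.0691) were not called. Hspb1 1422943_a_at, whose rise was called in B6 only, had a difference of -0.51 that was not called. In the fits without 1 array this difference lay between -0.65 and -0.36. Its adjusted p was 0.0324 with probe sets above the median level, 0.0172 with trend and robust and 0.00891 when centred on housekeeping genes (-0.74).

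**Figure D3:**
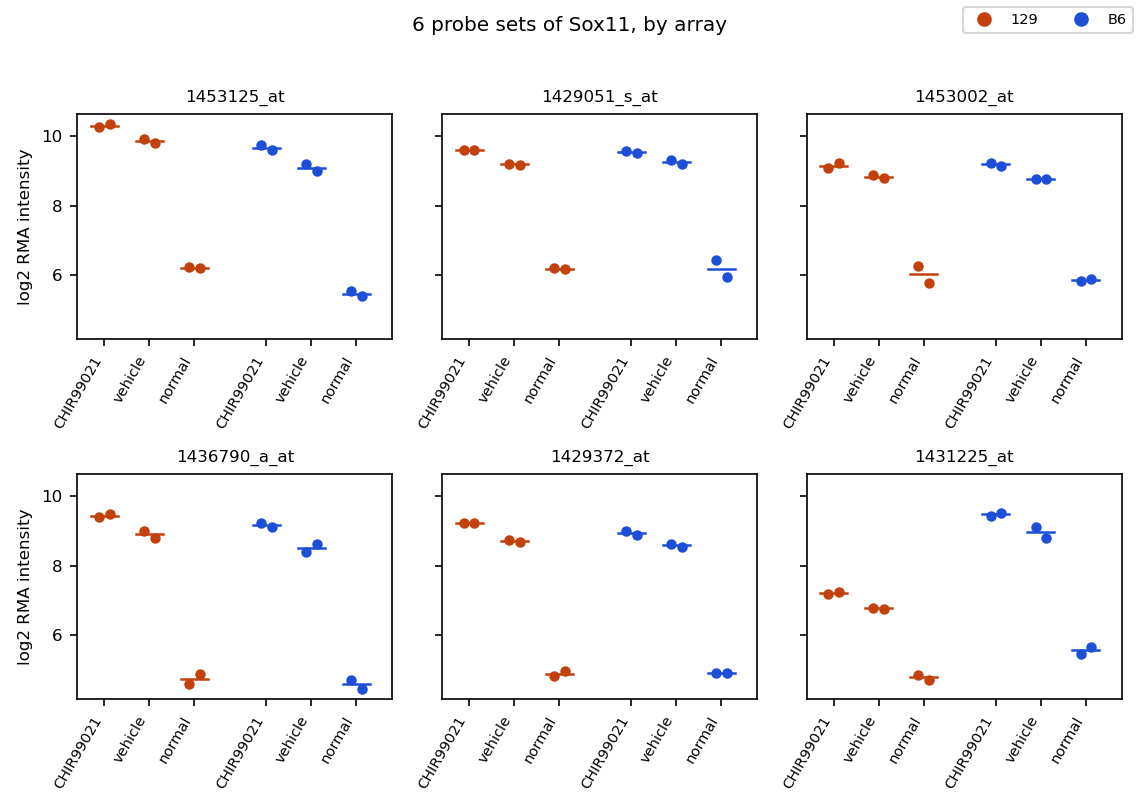
Level of the 6 probe sets of Sox11 on every array (points, log2 RMA intensity, 1 common axis) with the group mean (line), in 129 and then B6 mice. At 1431225_at the 129 arrays lie below the B6 arrays in all 3 conditions, at 1453125_at they lie above them in all 3, and at all 6 probe sets the explants lie above normal retina.

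By the median of the 20 probe sets, the effect of CHIR99021 on the explants was smaller than that of damage. Stmn2 was an exception, at 1423280_at in both strains and at 1423281_at in 129. In 129, 9 of the 20 probe sets rose with the inhibitor and none fell, and in B6 13 rose and 1 fell. By main probe set, 5 of the 9 genes rose in each strain, and 1 fell in B6. Of all probe sets, 5.87% were called higher and 6.38% lower in 129, and in B6 9.42% were called higher and 9.18% lower. Here too calls were more frequent at high levels. With only probe sets above the median level tested, 6827 were called in 129 and 8943 in B6, beside 5517 and 8379 of all 45037. No member was called lower in 129 by limma, and 11 of the 20 had an unadjusted p under 0.05 there, all of them upward. Over all 45037 probe sets 11841 had such a p in 129 in either direction. The median effect on the 20 was 0.36 in 129 and 0.37 in B6, beside 0.01 and 0.00 over all probe sets. The counts depended on single arrays, as 5 were called higher in 129 without 129 3DIV vehicle replicate 2 or without 129 3DIV CHIR99021 replicate 2, and in B6 6 without B6 3DIV vehicle replicate 2 and 8 without B6 3DIV CHIR99021 replicate 2. Calls that were made in every fit without 1 array numbered 5 of 9 in 129 and 4 of 14 in B6.

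Stmn2 had the largest rise with CHIR99021 among the members in 129. Its probe set 1423281_at stood at 10.87 and 10.83 in 129 explants with CHIR99021, against 10.12 and 9.88 with vehicle, and at 11.16 and 11.24 in B6 explants with CHIR99021, against 10.68 and 10.83 with vehicle. In each strain both treated explants were above both vehicle explants. Stmn2 rose by 0.85 in 129 (SE 0.09, adjusted p = 2.88e-04) and by 0.45 in B6 (adjusted p = 0.00714), and the call in B6 was lost without B6 3DIV vehicle replicate 1 (0.37, adjusted p = 0.0581) or B6 3DIV CHIR99021 replicate 2 (0.40, adjusted p = 0.0523). At 1423280_at the rise was 0.64 in 129 (adjusted p = 0.0015) and 0.61 in B6 (adjusted p = 0.00127). This probe set had changed less after damage (0.26 in 129 and 0.37 in B6), in comparisons that share the vehicle arrays.

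Gal stood at 11.09 and 11.01 in 129 explants with CHIR99021, against 10.26 and 10.20 with vehicle. In B6 it stood at 11.09 and 11.01 with CHIR99021, against 10.75 and 10.55 with vehicle. With the inhibitor the strains had the same level, while with vehicle 129 was the lower. Gal rose by 0.82 in 129 (SE 0.09, adjusted p = 2.76e-04) and by 0.40 in B6 (adjusted p = 0.00987), where the call was lost without B6 3DIV vehicle replicate 2 (0.30, adjusted p = 0.0844) or B6 3DIV CHIR99021 replicate 1 (0.36, adjusted p = 0.0652).

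Gap43 stood at 10.55 and 10.59 in 129 explants with CHIR99021, against 10.09 and 9.99 with vehicle, and at 10.71 and 10.66 in B6 explants with CHIR99021, against 10.41 and 10.41 with vehicle. Treated explants were above vehicle explants in both strains. The rise was 0.53 in 129 (SE 0.07, adjusted p = 9.65e-04) and 0.28 in B6 (adjusted p = 0.0194). The call in B6 was lost without any 1 of the 4 B6 explant arrays, with an adjusted p of 0.0576 to 0.101, and with only the arrays compared (0.0667).

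Sox11 stood at 10.26 and 10.34 in 129 explants with CHIR99021, against 9.92 and 9.81 with vehicle (1453125_at), and at 9.74 and 9.58 in B6 explants with CHIR99021, against 9.19 and 8.999 with vehicle. At all 6 probe sets, which belong to 1 gene and were read on the same arrays, both treated explants of a strain were above both vehicle explants. How many of all probe sets separate in this way was not counted. The main probe set rose by 0.43 in 129 (SE 0.09, adjusted p = 0.0131) and by 0.57 in B6 (adjusted p = 0.00213). Of the 6 probe sets 4 were called in 129 and 5 in B6, with estimates from 0.31 to 0.54 in 129 and from 0.28 to 0.65 in B6. Of the other probe sets, 1429372_at in 129 kept its call in every fit without 1 array, and the rest lost theirs in 1 to 10 of the 12. In 129, 1436790_a_at (adjusted p = 0.151) and 1431225_at (0.116) lost theirs without 129 3DIV vehicle replicate 2 and without each 129 array with CHIR99021, and 1431225_at also without 129 3DIV vehicle replicate 1. In B6, 1431225_at (0.0732) and 1429372_at (0.0667) lost theirs without B6 3DIV vehicle replicate 2, 1436790_a_at without B6 3DIV vehicle replicate 1 (0.053), 1431225_at without B6 3DIV CHIR99021 replicate 2 (0.0564) and 1429372_at without B6 3DIV CHIR99021 replicate 1 (0.0658), while 1453002_at kept its call only without 129 normal replicate 1 or 2. The call in B6 held at the main probe set in every fit without 1 array, and that in 129 was lost without 129 3DIV vehicle replicate 2 (0.38, adjusted p = 0.102) or 129 3DIV CHIR99021 replicate 2 (0.39, adjusted p = 0.0846).

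Klf6 was called with CHIR99021 in B6 and not in 129. It stood at 9.16 and 9.16 in 129 explants with CHIR99021, against 9.22 and 9.20 with vehicle (1427742_a_at), and at 9.21 and 9.29 in B6 explants with CHIR99021, against 8.81 and 8.89 with vehicle. The B6 explants with vehicle were the low ones, and the treated explants of both strains had like levels. The effect was -0.05 in 129 (SE 0.08, adjusted p = 0.739), and Klf6 rose by 0.40 in B6 (adjusted p = 0.00439). In B6 4 of its 5 probe sets were called, by 0.35 to 0.77, and in 129 none was, with estimates of -0.05 to 0.20 of which none had an unadjusted p under 0.05. Without B6 3DIV vehicle replicate 2, 1433508_at (adjusted p = 0.0544) and 1447448_s_at (adjusted p = 0.113) lost their calls, the second also without B6 3DIV CHIR99021 replicate 2 (adjusted p = 0.107), while 1427742_a_at and 1418280_at kept theirs in every such fit.

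Ecel1 stood at 10.11 and 10.24 in 129 explants with CHIR99021, against 9.74 and 9.75 with vehicle. B6 levels were 9.82 and 9.74 with CHIR99021, against 9.79 and 9.72 with vehicle, and the groups overlapped. It rose by 0.43 in 129 (SE 0.12, adjusted p = 0.0349), and the effect in B6 was 0.02 (adjusted p = 0.921). The call in 129 was lost without any 1 of the 4 129 explant arrays (adjusted p = 0.0834 to 0.176) and without either B6 vehicle explant (adjusted p = 0.0502).

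Sprr1a was the member that was called lower. It stood at 10.01 and 10.08 in 129 explants with CHIR99021, against 10.00 and 9.77 with vehicle, and at 10.30 and 10.28 in B6 explants with CHIR99021, against 10.77 and 10.73 with vehicle. In B6 both treated explants were below both vehicle explants, and in 129 both were above them by a small margin. Sprr1a fell by 0.46 in B6 (SE 0.13, adjusted p = 0.0352) and changed by 0.16 in 129 (adjusted p = 0.516). The fall was not called without any 1 of the 4 B6 explant arrays (adjusted p = 0.11 to 0.14).

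Gadd45a and Hspb1 gave no call with the inhibitor in either strain. The effect on Gadd45a was 0.13 in 129 (SE 0.12, adjusted p = 0.56) and 0.09 in B6 (adjusted p = 0.658). For Hspb1 the effects at the main probe set were -0.08 in 129 (SE 0.09, adjusted p = 0.644) and -0.04 in B6 (adjusted p = 0.819).

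**Figure D4:**
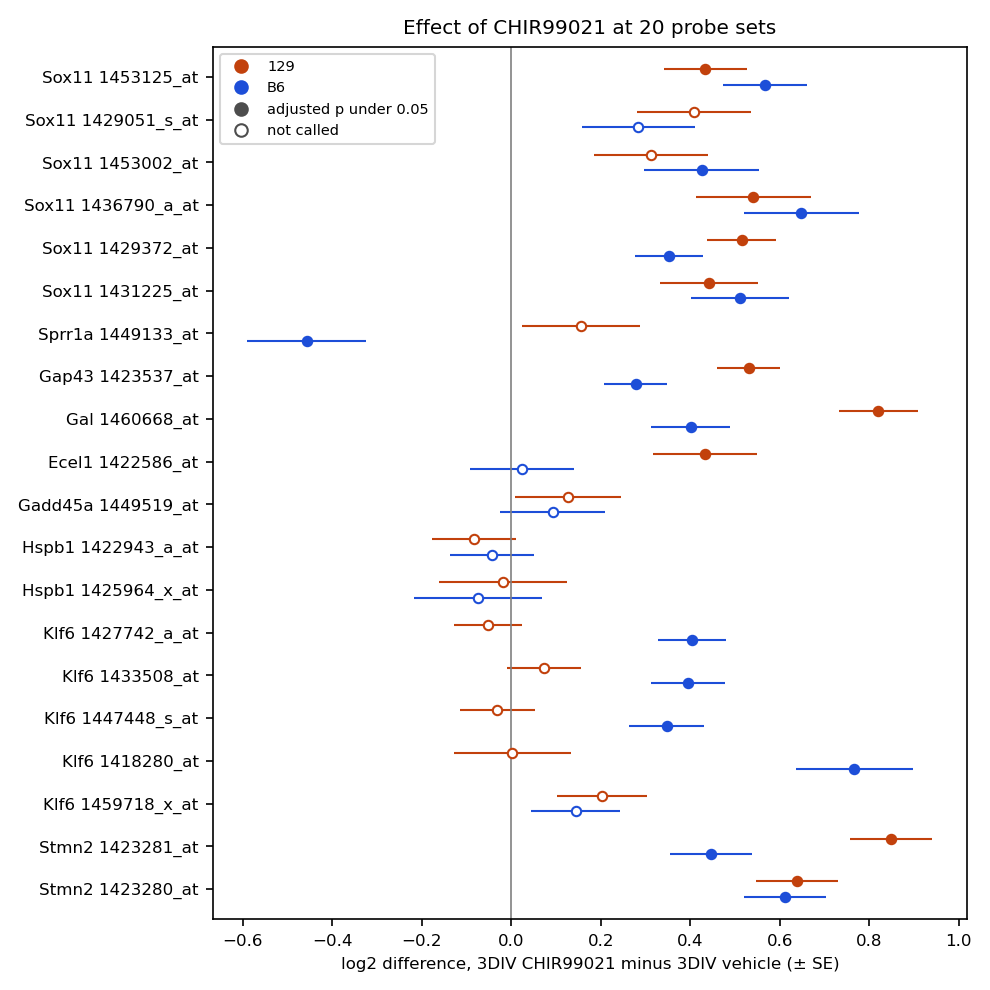
Effect of CHIR99021 on explants (3DIV CHIR99021 minus 3DIV vehicle, log2, with SE) at the 20 probe sets, with 129 above B6 in each row and open symbols where an effect was not called. The probe sets of Sox11, Gap43, Gal and Stmn2 lie right of 0 in both strains (0.28 to 0.85), those of Hspb1 lie at -0.08 to -0.02, and Sprr1a in B6 lies at -0.46.

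None of the 20 effects of CHIR99021 was called as different between the strains by limma, although 9 had an unadjusted p under 0.05. Such a p was found at 6600 of all 45037 probe sets. Of all probe sets 1.35% were called in this comparison. The differences closest to a call were those of Klf6, at -0.46 (SE 0.11, adjusted p = 0.0747) for 1427742_a_at and -0.76 (SE 0.19, adjusted p = 0.0812) for 1418280_at, with the larger effect in B6. Gal had 0.42 (SE 0.12, adjusted p = 0.15) and Sprr1a 0.61 (SE 0.19, adjusted p = 0.16). Without B6 normal replicate 1 or without B6 normal replicate 2, Sprr1a had an adjusted p of 0.0373.

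The strains were also compared within each condition, where the vehicle explants and normal retinas are the same arrays as above. By main probe set, 1 of the 9 genes was higher and 1 lower in normal 129 retina. With vehicle 2 genes were higher and 5 lower in 129, and with CHIR99021 1 was higher and 2 were lower. The counts of probe sets that follow hold several of Sox11 and of Klf6. In normal retina 1 probe set was higher in 129 and 2 were lower, in explants with vehicle 6 were higher and 7 lower, and in explants with CHIR99021 3 were higher and 4 lower. Of all probe sets, 6.07% were called higher and 5.45% lower in normal 129 retina, 11.4% and 8.57% in 129 explants with vehicle, and 6.01% and 4.88% in 129 explants with CHIR99021. Without any 1 of the 4 arrays with CHIR99021, the counts there were 1 higher and 2 lower. In normal retina 2 were higher without B6 normal replicate 2 or 129 normal replicate 2, and 1 was lower without 129 normal replicate 1.

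Of the probe sets of Sox11, 2 differed between the strains in all 3 conditions, in opposite directions. At 1453125_at 129 was higher by 0.74 in normal retina (adjusted p = 4.28e-04), by 0.77 with vehicle (adjusted p = 2.52e-04) and by 0.64 with CHIR99021 (adjusted p = 0.00122). At 1431225_at the differences were -0.77 (adjusted p = 0.00101), -2.19 (adjusted p = 5.17e-07) and -2.26 (adjusted p = 4.46e-07). Of the other 4 probe sets 1 was called, 1429372_at with CHIR99021 (0.29, adjusted p = 0.0356), and it was not called without any 1 of the 4 arrays with CHIR99021 (adjusted p = 0.0684 to 0.192) or without either 129 array with vehicle (adjusted p = 0.0532).

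Other strain differences were seen in explants more than in normal retina. With vehicle, 129 was below B6 in Sprr1a by -0.86 (SE 0.13, adjusted p = 0.00109) and in Stmn2 1423281_at by -0.75 (SE 0.09, adjusted p = 2.62e-04). It was also below B6 in Hspb1 1422943_a_at by -0.58 (SE 0.09, adjusted p = 0.00152), in Gal by -0.42 (SE 0.09, adjusted p = 0.0068) and in Gap43 by -0.37 (SE 0.07, adjusted p = 0.00396). The other probe set of Stmn2, 1423280_at, gave no strain call in any condition, with vehicle means of 10.05 in 129 and 10.28 in B6. The call of Gal was lost without B6 3DIV vehicle replicate 1 (-0.32, adjusted p = 0.0595) or 129 3DIV vehicle replicate 2 (-0.39, adjusted p = 0.0564). Klf6 was higher in 129 at all 5 probe sets, by 0.34 to 0.64. Its calls at 1427742_a_at and 1433508_at were made in every fit without 1 array, that at 1418280_at was lost without B6 3DIV vehicle replicate 1 (adjusted p = 0.0551), that at 1447448_s_at without B6 3DIV vehicle replicate 2 (0.0693) or 129 3DIV vehicle replicate 2 (0.0536), and that at 1459718_x_at without any 1 of the 4 vehicle arrays (0.0717 to 0.191) or either 129 array with CHIR99021 (0.0507). In normal retina Gap43 was the only one of these 6 genes with a call, at -0.35 (SE 0.07, adjusted p = 0.00811), and it was not called without 129 normal replicate 1 (-0.31, adjusted p = 0.0735), with only the arrays compared (adjusted p = 0.0665) or when centred on housekeeping genes (-0.09, adjusted p = 0.336). With CHIR99021 Hspb1 1422943_a_at differed by -0.62 (adjusted p = 0.00149), Stmn2 1423281_at by -0.35 (adjusted p = 0.0331) and Klf6 1459718_x_at by 0.39 (adjusted p = 0.0283), while Gal, with equal levels, and Sprr1a, at -0.25 (adjusted p = 0.29), were not called. The calls of Stmn2 (adjusted p = 0.0764 to 0.17) and Klf6 (0.0703 to 0.152) were lost without any 1 of the 4 arrays with CHIR99021, and that of Stmn2 also with only the arrays compared (0.0523) and when centred on housekeeping genes (0.0526). Of 17 microglia and macrophage markers, 16 were lower in 129 explants with vehicle, with a median of -1.13, beside 8.57% of all probe sets. Their summed intensity was 3430 to 3560 in 129 explants and 8280 to 8960 in B6 explants. In normal retina 10 of the 17 were already lower in 129, with a median of -0.55. The sums there were 1350 to 1380 in 129 and 2040 to 2190 in B6. The part of microglia and macrophages in the strain differences of the members was not tested.

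Over the 12 arrays the members followed one another closely, which is a description, since the arrays share their groups. The main probe sets of Sox11, Sprr1a, Gap43, Gal, Ecel1, Gadd45a and Klf6 had a Pearson r of 0.939 to 0.989 in pairs. Stmn2 had 0.789 to 0.925 with these 7 genes, and Hspb1 had 0.387 to 0.614. Among genes with a single symbol, a level above the median and an SD over 0.3, the 3 with the highest r with each member were listed. For Gal and for Ecel1 a probe set of Sox11 was among them (r = 0.997 each), and Cd44 was among them for Ecel1 (0.997) and for Gadd45a (0.995). Klf6 was most like Irgm1, Ifit2 and Dtx3l, genes known to be induced by interferon (r = 0.997 each), and Gap43 most like Gadd45b, Cstb and Wfs1 (0.994 each). Hspb1 was most like Ccl9, a chemokine (0.976), Pdlim3 (0.944) and Pnrc2 (0.941), and Stmn2 most like Ctsh, a lysosomal protease (0.98), Zfp9 (0.979) and Ddit3 (0.977).

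Ganglion cells carry the axons that were cut, and most of their own markers did not rise with the members. After damage, 13 of 20 measured ganglion cell genes fell in 129 and 2 rose, and in B6 11 fell and 2 rose, with medians of -0.57 and -0.35. Of all probe sets, 15.9% in 129 and 16.6% in B6 were called lower, and 14.7% and 14.9% higher. In B6 1 rose without B6 normal replicate 1 or B6 3DIV vehicle replicate 2. Rbpms, an RNA-binding protein found in all types of ganglion cell, fell by 1.15 in 129 and by 1.25 in B6. Pou4f1, a transcription factor of ganglion cells, fell by 1.23 in 129 and by 0.85 in B6, and Nefl, the light neurofilament, fell by 0.59 in 129 and by 0.74 in B6. Thy1, a surface protein of ganglion cells, was at -0.05 in 129 and 0.00 in B6, neither of them called. The summed intensity of the 20 was 13700 to 14400 in 129 explants with CHIR99021, 16000 to 16400 with vehicle and 19600 in normal 129 retina, and 14400 to 15300, 16600 and 20400 to 20500 in B6. In whole retina, fewer cells of a type and less RNA per cell cannot be told apart.

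**Figure D5:**
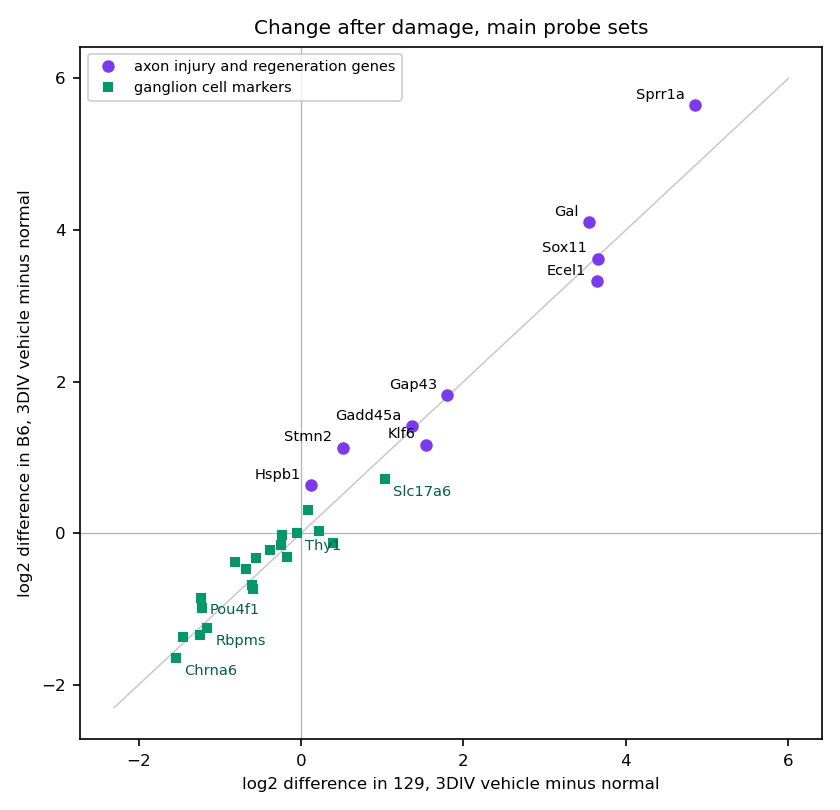
Change after damage in 129 (horizontal) and in B6 (vertical), log2, for the main probe set of the 9 genes (circles) and of 20 ganglion cell markers (squares), with a line of equality. The 9 genes lie at 0.13 to 4.85 in 129 and at 0.64 to 5.65 in B6, and most ganglion cell markers lie below 0 on both axes.

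Other cells changed too, beside 14.7% of all probe sets called higher after damage and 15.9% lower in 129, and 14.9% and 16.6% in B6. Of 17 measured genes of microglia and macrophages, 14 rose after damage in 129 and 15 in B6, with medians of 1.24 and 1.94, and C1qa, a complement component, rose by 1.998 and 2.52. With CHIR99021 the direction was the opposite of that of most members, as 11 of the 17 fell in 129 and 14 in B6. The medians were -0.79 and -1.20, and of all probe sets 6.38% and 9.18% were called lower. Gfap, an intermediate filament of reactive glia, rose by 2.33 in 129 and by 2.21 in B6 after damage. Of 14 genes of Müller glia 6 rose and 5 fell in 129, with 3 falling without 129 3DIV vehicle replicate 2, and 9 rose and 4 fell in B6. Glul, the glutamine synthetase of Müller glia, fell by 1.15 in 129 and by 0.88 in B6. The median change of the 14 was 0.12 in 129 and 0.55 in B6 (-0.39 and 0.27 when centred on housekeeping genes). Their summed intensity was 38900 to 40100 in normal 129 retina and 49200 to 50400 in 129 explants with vehicle. In B6 the sums were 39000 to 40300 and 58700 to 61700. All 11 measured rod genes fell in both strains, with medians of -1.64 in 129 and -1.29 in B6, and since RMA sets all arrays to 1 distribution, levels are relative to the rest of the RNA. The part of these shifts in the changes of the 9 genes was not tested.

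The partners of the 9 genes were described by lists of known genes of the same pathways, each gene by its probe set with the highest mean. After damage, 14.7% of all probe sets were called higher and 15.9% lower in 129, and 14.9% and 16.6% in B6. Calls were more frequent at high levels. With only probe sets above the median level tested, 12135 were called in 129 and 12074 in B6, beside 13784 and 14188 of all 45037. Of 21 measured transcription factors of injury, 18 rose after damage in 129 and 16 in B6, and the others were not called, with medians of 1.15 and 0.88. When centred on housekeeping genes 12 rose and 3 fell in 129, and 13 rose and 3 fell in B6, with medians of 0.64 and 0.60. Cebpd rose by 4.65 in 129 and by 3.23 in B6, Cebpb by 2.70 and 2.50, and Atf3, which binds DNA with Jun, by 2.32 in 129 and 3.33 in B6. Of 19 measured injury peptides and secreted factors 11 rose in each strain, with medians of 0.58 in 129 (0.06 when centred on housekeeping genes) and 1.04 in B6. In 129 3 of them fell. In B6 the other 8 were not called, and 1 of them fell when B6 normal replicate 1, B6 3DIV vehicle replicate 2 or an array with CHIR99021 was left out. Timp1, an inhibitor of matrix proteases, rose by 4.72 in 129 and by 6.31 in B6. Clcf1 and Lif, cytokines of the interleukin-6 family that act on neurons and glia, rose by 3.51 and 2.60 in 129 and by 2.69 and 2.13 in B6, and Ccl2, which attracts monocytes, by 3.39 in 129 and 3.27 in B6.

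Growth cone and cytoskeleton genes did not move as 1 block, and their falling counts lay near the share of all probe sets (15.9% in 129, 16.6% in B6). The share called higher was 14.7% in 129 and 14.9% in B6. Of 27 measured, 12 rose and 5 fell after damage in 129, and 12 rose and 4 fell in B6, with medians of 0.01 and 0.18 (-0.51 and -0.11 when centred on housekeeping genes). The falling ones were 3 in 129 without 129 normal replicate 1, 129 normal replicate 2 or 129 3DIV vehicle replicate 2, and 2 in B6 without B6 normal replicate 2 or B6 3DIV vehicle replicate 2. Tubb6, a tubulin that injured neurons induce, rose by 4.06 in 129 and by 2.69 in B6. Rhoc, a small GTPase of the actin skeleton, rose by 1.92 in 129 and 2.21 in B6, and Tubb2b, a tubulin of growing neurites, by 2.06 and 1.80. Stmn4, a relative of Stmn2, rose by 0.69 in 129 and by 1.11 in B6.

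Of 21 measured stress genes 12 rose and 2 fell after damage in 129, and 13 rose and 3 fell in B6, with medians of 0.32 and 0.53 (-0.19 and 0.25 when centred on housekeeping genes). Without 129 3DIV vehicle replicate 1, 1 fell in 129. Hmox1, the haem oxygenase of the oxidative stress response, rose by 3.34 in 129 and by 4.11 in B6. Gadd45b, a relative of Gadd45a, rose by 2.72 in 129 and by 2.46 in B6, and Pmaip1, a death promoter of the Bcl2 family, by 1.77 in 129 and 2.84 in B6. In the DLK and JNK pathway 4 of 16 rose and 3 fell in each strain, shares near those of all probe sets (14.7% higher and 15.9% lower in 129, 14.9% and 16.6% in B6), so that these counts do not set the pathway apart. Dusp16, a phosphatase of JNK, rose by 0.92 in 129 and by 0.62 in B6. These counts were small, and 1 fell in 129 without 129 3DIV vehicle replicate 2, and in B6 1 or 2 rose without B6 normal replicate 1 or B6 3DIV vehicle replicate 1 and 1 fell without B6 normal replicate 1 or B6 3DIV vehicle replicate 2.

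Of 16 repressors of axon growth 6 rose and 2 fell in 129 and 5 rose and 1 fell in B6. The falling counts lay below the share of all probe sets called lower (15.9% in 129 and 16.6% in B6). For the rising counts of this paragraph, the share of all probe sets called higher was 14.7% in 129 and 14.9% in B6. In 129 3 rose without 129 normal replicate 1 or 129 3DIV vehicle replicate 1, and in B6 none fell without B6 normal replicate 2 or either B6 3DIV vehicle replicate. Socs3, the feedback inhibitor of STAT3 signalling that limits regrowth of ganglion cell axons in mice, rose by 4.28 in 129 and by 4.70 in B6, and Nrp1, a receptor of semaphorins, by 0.73 and 0.89. Of 15 genes of axon degeneration 10 rose and 1 fell in 129, and 9 rose and 1 fell in B6, with medians of 0.42 and 0.52 (-0.09 and 0.24 when centred on housekeeping genes), and 6 rose in 129 without 129 3DIV vehicle replicate 1. The falling count was 0 to 2 in each strain when 1 array was left out. Among them Tnfrsf1a, a receptor of tumour necrosis factor, rose by 1.9998 in 129 and 1.72 in B6. Tnfrsf21, the death receptor DR6, rose by 1.38 in 129 and by 0.97 in B6. Capn2, a calpain protease, rose by 1.53 and 1.13, and Cast, the inhibitor of calpains, by 1.15 and 0.79.

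With CHIR99021, 6 of 27 growth cone and cytoskeleton genes rose in 129 and 7 in B6, where 3 fell. Of all probe sets, 5.87% were called higher and 6.38% lower in 129, and 9.42% and 9.18% in B6. In 129 3 rose without 129 3DIV vehicle replicate 2 or either 129 array with CHIR99021, and in B6 4 rose without B6 3DIV vehicle replicate 2 or B6 3DIV CHIR99021 replicate 1, and 1 fell without either B6 vehicle array or B6 3DIV CHIR99021 replicate 2. Tubb3, the neuronal tubulin, rose by 1.64 in 129 and by 1.40 in B6, whereas after damage it had changed by -0.26 and 0.04 without a call. Stmn4 rose by 0.66 in 129 and by 0.54 in B6. Npy, the neuropeptide Y, rose by 1.36 in 129 and by 1.74 in B6. Of the 19 peptides and secreted factors, 4 rose and 2 fell in 129, and 5 rose and 4 fell in B6. In 129 1 fell without 129 3DIV vehicle replicate 1 or either 129 array with CHIR99021, and in B6 2 fell without B6 3DIV CHIR99021 replicate 1. Of 21 stress genes 9 rose and 3 fell in 129, and 10 rose in B6. In 129 4 rose without 129 3DIV vehicle replicate 2 or 129 3DIV CHIR99021 replicate 1, and 1 fell without replicate 2 of either 129 explant group. Chac1, an enzyme of glutathione breakdown induced by ATF4, rose by 1.10 in 129 and by 0.81 in B6.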

How the data were processed

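RNA of retina was labelled with a 3′ IVT kit and hybridized to Affymetrix Mouse Genome 430 2.0 arrays. The authors deposited RMA intensities on a linear scale, whose tool version and chip definition are not given in the sources used here. Medians of the 12 arrays were 68.8 to 70.7, and the number of arrays limits the precision. Intensities were taken to log2, 64 control probe sets were left out, and no filter was applied. Groups came from the labels. The probe annotation gave 1 symbol to 34945 probe sets, several to 932 and none to 9160.

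A mean per group was fitted with limma 3.58.1 (R 4.3.3), with eBayes (prior df 4.69, residual df 6) and Benjamini-Hochberg adjustment over 45037 probe sets in each of 9 comparisons. The fit was tested on simulated data. The members and lists were chosen with earlier results of these data known. Every member was named with all its probe sets, and from each list up to 4 genes with the largest called change after damage or with CHIR99021 and set markers. List genes whose call was lost without 1 array were then left out, and Jun, Krt15, B2m, 2 ganglion cell genes labelled in a plot and the values of Tubb3 after damage were added, after values were seen. A list gene stood by its probe set with the highest mean. Listed genes were of injury transcription factors, growth cone, peptides, DLK and JNK, stress, axon growth repressors, degeneration, and retinal and other cell types. Promoter sequences came from RefSeq, on GRCm38.p6. Probe sets ending in _s_at or _x_at can share signal with related transcripts.

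Alternatives were replicate number as a block, only the arrays compared, cyclic loess, centring on housekeeping genes, probe sets above the median level, eBayes with trend and robust, Storey q-values, any probe set of a gene, and leaving out each array. Replicate numbers did not pair the arrays, as deviations of like-numbered arrays had r of -0.04 to 0.01. Immunostaining and cell counts were not analysed here. Figures were drawn with matplotlib 3.10.9 in Python 3.11.15.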

Additional observations from a re-analysis of the deposited data

Results flagged for a closer look

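For 3 probe sets the change after damage differed between the strains in the test of that difference. The change in 129 minus that in B6 was -1.43 for Sox11 1431225_at, -0.56 for Gal and -0.62 for Stmn2 1423281_at, so the rise was the larger one in B6 for each. The difference at Sox11 1431225_at did not appear at the 5 other probe sets of Sox11, where it lay between -0.09 and 0.23. At the other probe set of Stmn2, 1423280_at, the difference between the strains was not called. For Gal and Stmn2 the call was lost in most fits without 1 array.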

How the results depend on the processing

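The calls after damage of Sox11, Klf6, Sprr1a, Gap43, Gal, Ecel1 and Gadd45a held in both strains under every alternative that gave a value; Klf6 1459718_x_at gave none with probe sets above the median level. Centring on the mean of 7 housekeeping genes lowered every change after damage by 0.51 in 129 and by 0.28 in B6. It moved the difference between the strains by -0.23 and the strain difference of normal retina by 0.26. Other comparisons moved by less than 0.1. Of these 7 genes B2m itself rose by 3.62 in 129 and 2.79 in B6, while the median change of the 7 was -0.14 and -0.23. After damage this centring therefore rests largely on B2m, which limits every value given under it. Under it, 3 probe sets of the members fell after damage in 129, 6 had the larger rise in B6, and in normal retina 10 were higher and 1 lower in 129. Hspb1 1422943_a_at then gave -0.385 after damage in 129 and 0.0261 with CHIR99021 in B6, Stmn2 1423281_at gave -0.00175 after damage in 129, and Klf6 1427742_a_at gave 0.00977 with CHIR99021 in 129. Stmn4 gave 0.17 after damage in 129 (adjusted p = 0.0686), and Stmn2 1423280_at gave 0.09 in B6 (adjusted p = 0.379).

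With probe sets above the median level, the strains' change after damage differed at 2 probe sets in the direction of 129 and at 5 in that of B6, and the effect of CHIR99021 at 2 in that of B6. With trend and robust, 2 and 5 differed after damage and 2 and 2 with CHIR99021. Storey q-values gave 1 in the direction of 129 after damage. With only the arrays compared, 1 differed after damage and 1 with CHIR99021, both in the direction of B6, and 1 was lower in normal 129 retina. That setting ended 7 calls of the members, among them those with CHIR99021 in B6 of Gap43 (adjusted p = 0.0667) and Klf6 1447448_s_at (0.0608) and between strains with CHIR99021 of Sox11 1429372_at (0.0916) and Stmn2 1423281_at (0.0523). The replicate block ended 3 calls, those of Sox11 1429372_at with CHIR99021 between strains (adjusted p = 0.0525), Klf6 1459718_x_at with vehicle between strains (adjusted p = 0.0515) and Stmn2 1423281_at in the difference of damage (adjusted p = 0.0528), and no other call of a member.

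Without 1 array, the change after damage differed at 0 to 1 probe sets in the direction of 129 and at 1 to 2 in that of B6. The effect of CHIR99021 was upward at 5 to 10 in 129 and at 6 to 13 in B6, downward at 0 to 1 in B6, and differed at 0 to 1 in each direction. Strain differences numbered 1 to 2 higher and 1 to 3 lower in normal retina, and 1 to 4 higher and 2 to 4 lower with CHIR99021. Hspb1 1422943_a_at gave -0.0174 (without 129 normal replicate 1) to 0.274 after damage in 129 and -0.0998 to 0.0154 (without B6 3DIV CHIR99021 replicate 1) with CHIR99021 in B6, and Ecel1 gave -0.0143 (without B6 3DIV vehicle replicate 2 or B6 3DIV CHIR99021 replicate 1) to 0.0628 with CHIR99021 in B6. The cause was not tested for any of these.

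Lists moved mostly under housekeeping centring. After damage, growth cone genes then numbered 6 higher and 16 lower in 129 (12 and 5 otherwise) and 9 lower in B6 (4), stress genes 9 lower in 129 (2) and 8 higher and 6 lower in B6 (13 and 3), DLK and JNK genes 1 higher and 11 lower in 129 (4 and 3) and 1 and 8 in B6 (4 and 3), repressors 2 and 11 in 129 (6 and 2) and 7 lower in B6 (1), and degeneration genes 6 higher in 129 (10). Transcription factors were lower for 3 in each strain and peptides for 4 in B6 (0 each otherwise), and ganglion cell genes for 17 in B6 (11). With any probe set of a gene, 8 DLK and JNK genes were lower in B6 (3), 6 stress genes (3) and 6 repressors (1), and in 129 4 repressors (2). With 2 arrays a group, small differences could not be told from the spread.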
